A study of Homo sapiens with 2 samples.

Results

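The Notch feedback regulators were taken as 10 genes: NRARP, the Deltex genes DTX1, DTX2, DTX3 and DTX4, the Fringe genes LFNG, MFNG and RFNG, and the Numb genes NUMB and NUMBL. They were found by symbol among the 19198 genes of the deposited expression values, and all 10 were listed. PolyA-selected mRNA was sequenced from 1 culture labelled as A549, a human lung adenocarcinoma line, that overexpressed NICD1 (A549-NICD1), and from 1 culture labelled as A549 with the empty vector (A549-Vector). NICD1 is the intracellular domain of the receptor NOTCH1, which moves to the nucleus and activates transcription with RBPJ. The methods of the study describe stable lines made by viral infection and antibiotic selection, with the NICD1 reading frame in a lentiviral vector, and do not say whether a line was a clone or a pool. With 1 library per condition, no difference below has a replicate check.

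Notch signalling is held in check at several steps, and these genes act at different ones. NRARP is a small ankyrin-repeat protein that binds the nuclear NICD complex, lowers the stability of NICD and is itself a transcriptional target of Notch in many tissues. Deltex proteins are ubiquitin ligases, several of which bind the ankyrin repeats of Notch and direct receptor traffic and turnover. Fringe proteins are Golgi glycosyltransferases that extend O-fucose on the extracellular repeats of Notch and so change which ligands activate it, and these repeats are absent from NICD1. NUMB and NUMBL are endocytic adaptors that oppose Notch at the membrane. DTX1 and LFNG are known Notch targets in lymphoid cells and in the segmenting embryo.

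RefSeq promoters (GRCh38.p14, from 250 bases before to 50 bases after the start) were matched for 7 of the 10 genes, with 10 promoters in all. They were searched for TGGGAA, the core of the RBPJ binding motif, on both strands (TTCCCA on the given strand is the opposite strand), and for the longer GTGGGAA, which contains it. The promoters of NRARP, DTX2 and LFNG are shown to 10 bases past the start, because NRARP has the most reads of the 10 among the known Notch targets, and DTX2 and LFNG hold a match. Capitals mark the TGGGAA match, 5′ to 3′ on the gene's strand. The windows are chr9:137302262-137302521 (minus strand), chr7:76461459-76461718 (plus strand) and, for the first LFNG promoter, chr7:2512279-2512538 (plus strand).
NRARP: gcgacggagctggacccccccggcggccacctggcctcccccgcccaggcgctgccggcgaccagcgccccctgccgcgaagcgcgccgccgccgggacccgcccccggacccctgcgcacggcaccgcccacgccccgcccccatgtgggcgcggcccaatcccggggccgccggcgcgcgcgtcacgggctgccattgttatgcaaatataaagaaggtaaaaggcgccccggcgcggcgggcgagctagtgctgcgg
DTX2: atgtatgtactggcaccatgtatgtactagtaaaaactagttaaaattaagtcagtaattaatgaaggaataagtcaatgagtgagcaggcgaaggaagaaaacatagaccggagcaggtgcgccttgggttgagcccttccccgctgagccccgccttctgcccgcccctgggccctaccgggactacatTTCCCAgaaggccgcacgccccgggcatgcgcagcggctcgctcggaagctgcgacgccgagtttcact
LFNG: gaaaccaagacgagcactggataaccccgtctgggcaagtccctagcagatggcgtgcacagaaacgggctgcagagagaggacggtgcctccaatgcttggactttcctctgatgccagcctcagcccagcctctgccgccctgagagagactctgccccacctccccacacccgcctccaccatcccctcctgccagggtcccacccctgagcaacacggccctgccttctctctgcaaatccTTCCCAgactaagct

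The NRARP promoter had no match, the DTX2 promoter had one on the opposite strand 59 bases before the start, and the first LFNG promoter had one on the opposite strand 5 bases before the start. The second LFNG promoter held TGGGAA on the given strand 248 bases before its start. In all, 3 of the 10 promoters held the core, against 24% of 35116 RefSeq promoters, and 0 of 10 held GTGGGAA, against 6.25% of them. A match is a description of letters in this window, and its absence says nothing of RBPJ.

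From the deposited values, a depth of 48528434 reads was recovered for A549-NICD1 and one of 48602848 for A549-Vector. Levels are in FPKM, which divides the reads of a gene by its length and by the depth. The log2 fold change is A549-NICD1 over A549-Vector on recovered reads plus 0.5, after a scaling that moved all genes by 0.05, and it understates changes of genes with few reads. Intervals are 95% exact intervals for counting error alone, and they take the reads as independent. The reads carried no molecular identifiers and several can come from 1 molecule, so the intervals may be too narrow. NOTCH1, the overexpressed gene, stood at 5.40 FPKM with the vector and at 2865 FPKM with NICD1. Reads of the introduced NICD1 can be counted under this symbol and were not told apart from those of the native gene. The value rests on a length of 9306 bases, which may not be that of the introduced RNA. RFC4, which the labels do not name as overexpressed, stood at 39.5 FPKM with the vector and at 4075 FPKM with NICD1. The study reports RFC4 as raised by NICD1 in these data. It proposes that RBPJ induces RFC4 directly and that RFC4 stabilises NICD1. The source of the RFC4 difference and its part in the differences below were not tested. Of 15 markers listed for A549, 5 reached 1 FPKM in each library, 9 stayed under 1 FPKM in each, and KRT7, KRT19, FGA and FGB were listed at 0 in both. Their summed level was 182 FPKM with the vector and 327 FPKM with NICD1, mostly KRT8 (85.9 and 176 FPKM) and KRT18 (73.1 and 130 FPKM). The other A549 markers that reached 1 FPKM in each library were EGFR (8.42 and 6.50 FPKM), ANXA1 (11.1 and 11.4 FPKM) and ALDH3A1 (1.45 and 2.01 FPKM). Of 9 markers listed for HEK293, an embryonic kidney line, 7 reached 1 FPKM in both libraries, with sums of 253 and 238 FPKM. The levels of most A549 and HEK293 markers given here go against the A549 label in both libraries. The methods of the study state that short tandem repeat fingerprinting was used to authenticate all lines. A549-NICD1 and A549-Vector are used below as the names on the labels. All 3 T cell and all 3 endothelial markers stayed under 1 FPKM, and of 3 fibroblast markers COL1A1 stood at 11.1 and 7.39 FPKM while COL1A2 was listed at 0.

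The levels of the 10 genes covered a wide range, and NRARP took the top place in A549-NICD1. In A549-Vector the order was RFNG, NUMB, NRARP, NUMBL, DTX2, DTX3, LFNG, DTX4, MFNG and DTX1. In A549-NICD1 it was NRARP, RFNG, NUMB, NUMBL, DTX2, DTX3, LFNG, DTX4, MFNG and DTX1. NRARP thus passed NUMB and RFNG, and the other 9 genes kept their order. Neighbours whose counting intervals overlapped were LFNG with DTX4 and DTX4 with MFNG in A549-Vector, and MFNG with DTX1 in A549-NICD1. RFNG, NUMB, NRARP and NUMBL reached 10 FPKM in each library, and LFNG, DTX4, MFNG and DTX1 were under 1 FPKM in both.

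**Figure D1:**
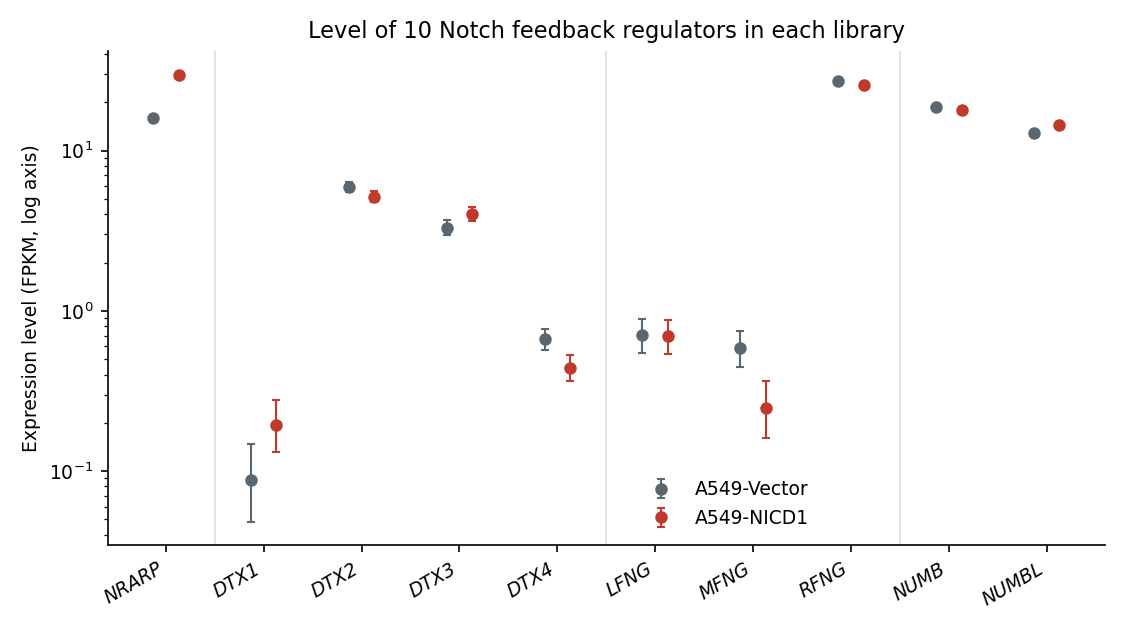
Level of each Notch feedback regulator in FPKM (log axis) in A549-Vector and A549-NICD1, 1 library each, with bars for the 95% exact Poisson interval of the reads. NRARP moves from 16.1 to 29.5 FPKM and ends above RFNG at 25.7 FPKM, while MFNG, at 0.583 and 0.247 FPKM, and DTX1, at 0.0876 and 0.194 FPKM, lie at the bottom.

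All 10 genes had at least 10 reads in a library and are read beside all genes that passed this filter, 15299 in all, called the genes tested although no test of conditions could be made. The log2 fold change was above 1 for 1 gene (DTX1), against 4.29% of all genes tested, and below -1 for 1 gene (MFNG), against 2.22%. Both of these genes had few reads, and neither passed these limits with a pseudocount of 0.1 FPKM. The counting interval lay above 0 for 4 genes (NRARP, DTX1, DTX3 and NUMBL), against 28.5% of all genes tested, and below 0 for 2 genes (DTX4 and MFNG), against 29.2%. It held 0 for the other 4, DTX2, LFNG, RFNG and NUMB. With scaling by total reads, 3158 of all genes tested had an interval above 0 and 5906 below 0, against 4356 and 4470 here, and DTX2 and NUMB were then below 0 too. The median log2 fold change was 0.01 over the 10 genes and -0.0030 over all genes tested. As a group the regulators therefore had no common direction, and counts of this size lie near the background.

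NRARP (ENSG00000198435.3, minus strand of chromosome 9 from 137300482 to 137302251 in GRCh38 by GENCODE 29, as for the other genes, a single exon) had the largest gain of the regulators with many reads, of which NUMBL also had an interval above 0. It had 2046 reads, 16.1 FPKM, with the vector and 3752 reads, 29.5 FPKM, with NICD1. Its counting intervals, 15.4 to 16.8 FPKM and 28.6 to 30.5 FPKM, did not overlap. In log2 terms the fold change was 0.93 (interval 0.85 to 1.01), or 1.91-fold after scaling. Among all genes tested, 4.62% had a higher log2 fold change, which includes many genes of few reads. Among the 10292 genes that had 1000 reads or more in the sum of the libraries, a limit set after its values were seen, NRARP ranked 50 from the top. By level it moved from rank 5261 to rank 2876 of the 19198 genes. The length behind its value was 2621 bases, longer than the 1770 exonic bases of GENCODE 29.

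The 3 genes nearest to NRARP in level, by distance in log2 FPKM over the 2 libraries, were IER5, BHLHE40 and QSOX1. Because both libraries enter this distance, a gain like that of NRARP is built into the choice. IER5, an immediate early gene, was at 15.7 and 27.9 FPKM in A549-Vector and A549-NICD1 (distance 0.0852). BHLHE40, a transcriptional repressor of the basic helix-loop-helix class, was at 15.0 and 29.8 FPKM (distance 0.0992). QSOX1, a sulfhydryl oxidase of the secretory pathway, was at 16.1 and 27.3 FPKM (distance 0.112).

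**Figure D2:**
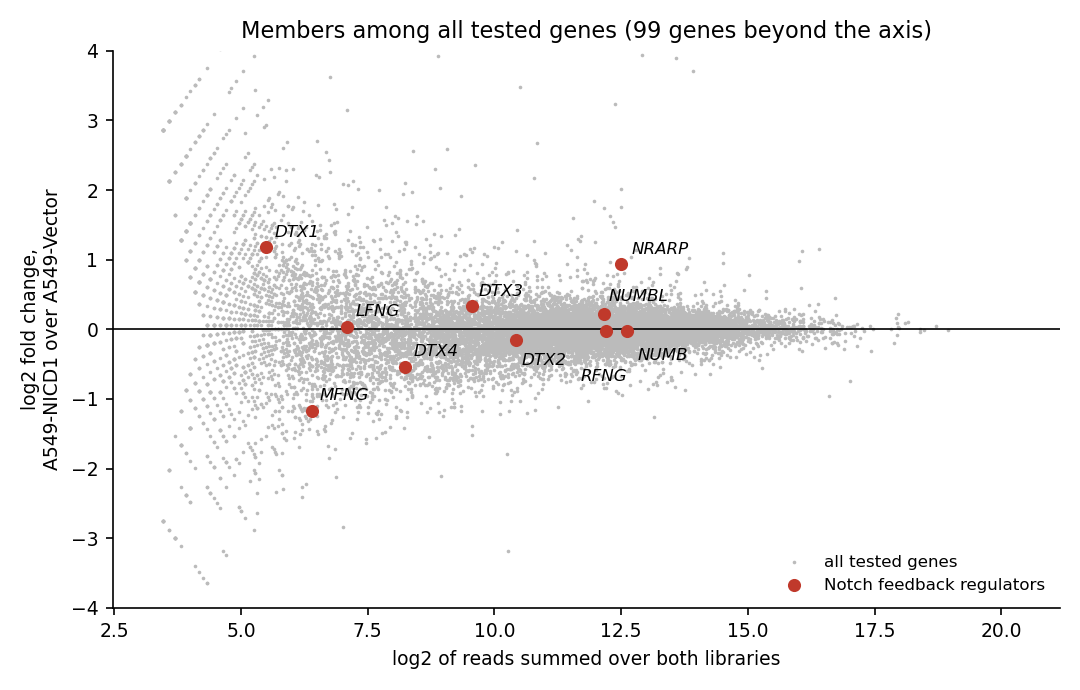
Log2 fold change, A549-NICD1 over A549-Vector, against the log2 of reads summed over both libraries for all 15299 genes tested (grey) and the 10 regulators (red), with 99 genes beyond the axis. NRARP lies at the upper edge of the genes of similar depth, whereas DTX1 and MFNG lie among widely scattered genes of few reads.

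The Deltex genes moved in different directions, and their summed level was nearly the same, 10.01 FPKM with the vector and 9.81 FPKM with NICD1. DTX2 and DTX3 held most of this sum in both libraries. DTX1 (ENSG00000135144.7, chromosome 12 from 113056709 to 113098028), the ligase best known as a Notch target, was the lowest of the 10. It had 14 reads, 0.0876 FPKM, with the vector and 31 reads, 0.194 FPKM, with NICD1. Its log2 fold change was 1.18 (interval 0.25 to 2.23), and 3.40% of genes tested had a higher one. The genes nearest to it in level over both libraries, a choice that builds in a similar gain, had as few reads. CEACAM1, an adhesion receptor, had 14 and 32, GOLGA6A, a golgin, had 13 and 32, and MYO1H, an unconventional myosin, had 19 and 43.

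DTX3 (ENSG00000178498.15, chromosome 12 from 57604622 to 57609804), which lacks the Notch-binding domains of other Deltex proteins, had 341 reads, 3.31 FPKM, with the vector and 413 reads, 4.02 FPKM, with NICD1. This was a log2 difference of 0.33 (interval 0.12 to 0.54). DTX4 (ENSG00000110042.7, chromosome 11 from 59171430 to 59208587), a ligase tied to Notch uptake, had 181 reads, 0.666 FPKM, and 120 reads, 0.442 FPKM. Its log2 fold change was -0.54 (interval -0.88 to -0.20), and 6.99% of genes tested had a lower one. DTX4 shares 78 exonic bases with MPEG1 on the opposite strand, which was listed at 0 in both libraries.

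DTX2 (ENSG00000091073.19, chromosome 7 from 76461676 to 76505995) had the highest level of the family. It had 735 reads, 5.94 FPKM, with the vector and 636 reads, 5.15 FPKM, with NICD1. This gave a log2 fold change of -0.15 (counting interval -0.31 to 0.0022). The value is uncertain in 2 ways. Its smallest length that gives whole reads would give 245 and 212 reads and an interval of -0.42 to 0.12. In addition, 15 of its 54 windows of 100 bases (27.8%) also occur in other genes, mostly the pseudogene DTX2P1, whereas the other 9 regulators had no such window.

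Within a library, the ratio of 2 genes does not depend on the scaling. DTX2 stood at 1.79 times DTX3 in A549-Vector and 1.28 times DTX3 in A549-NICD1, a change of 0.715-fold (interval 0.595 to 0.857, and 0.562 to 0.908 with the smaller reads of DTX2). DTX3 stood at 4.97 and 9.09 times DTX4, a change of 1.83-fold (interval 1.38 to 2.42). DTX4 stood at 7.60 and 2.28 times DTX1, a change of 0.300-fold (interval 0.141 to 0.610). For DTX2 over DTX4, 8.92 and 11.6 times, the interval of 1.01 to 1.70 became 0.962 to 1.77 with the smaller reads. As shares of the family sum, DTX2 went from 59.4% to 52.5%, DTX3 from 33.1% to 41.0%, DTX4 from 6.65% to 4.51% and DTX1 from 0.875% to 1.98%.

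The Fringe genes were carried by RFNG, and the only member whose counting interval left out 0 was MFNG, which was lower in A549-NICD1. MFNG (ENSG00000100060.17, minus strand of chromosome 22 from 37469063 to 37486401) had 59 reads, 0.583 FPKM, with the vector and 25 reads, 0.247 FPKM, with NICD1. On the log2 scale the fold change was -1.17 (interval -1.92 to -0.49), and 1.63% of genes tested had a lower one. LFNG (ENSG00000106003.12, chromosome 7 from 2512529 to 2529177), the Fringe with the clearest role as an oscillating Notch target in the embryo, had 69 and 68 reads, 0.701 and 0.692 FPKM. Its log2 fold change was 0.03 (interval -0.47 to 0.54), so a change within these bounds could not be detected at this depth. With scaling by total reads it was -0.02.

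RFNG (ENSG00000169733.11, minus strand of chromosome 17 from 82047902 to 82051831) had 2413 reads, 27.2 FPKM, with the vector and 2281 reads, 25.7 FPKM, with NICD1. Its log2 fold change was -0.03 (interval -0.11 to 0.06). A stretch of 835 exonic bases (21.6% of RFNG) overlaps GPS1 on the opposite strand, which stood at 109 and 104 FPKM, and the strand setting of the counting is not given in the sources used here. RFNG made 95.5% of the Fringe sum of 28.4 FPKM in A549-Vector and 96.5% of 26.7 FPKM in A549-NICD1. LFNG made 2.47% and 2.60%, and MFNG made 2.05% and 0.928%. LFNG stood at 1.20 times MFNG in A549-Vector and 2.80 times MFNG in A549-NICD1, a change of 2.32-fold (interval 1.26 to 4.33). RFNG over LFNG, 38.7 and 37.1 times, changed by 0.959-fold with an interval of 0.673 to 1.37 that holds 1.

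The Numb genes were both well expressed, and NUMBL gained a little on NUMB. NUMB (ENSG00000133961.20, minus strand of chromosome 14 from 73275107 to 73458617) had 3242 reads, 18.8 FPKM, with the vector and 3077 reads, 17.9 FPKM, with NICD1. On the log2 scale the fold change was -0.02 (interval -0.09 to 0.05). NUMBL (ENSG00000105245.9, minus strand of chromosome 19 from 40665905 to 40690972), its homologue, had 2173 reads, 12.8 FPKM, and 2439 reads, 14.4 FPKM. Its log2 fold change was 0.22 (interval 0.14 to 0.31), and 18.1% of genes tested had a higher one. NUMB stood at 1.47 times NUMBL in A549-Vector and 1.24 times NUMBL in A549-NICD1, a change of 0.846-fold (interval 0.783 to 0.913). The share of NUMBL in the sum of both went from 40.5% of 31.6 FPKM to 44.6% of 32.3 FPKM. Of the 10 pairs within the 3 families, the interval of the ratio excluded 1 for 8, of which DTX2 over DTX4 did not with the smaller reads of DTX2. No share over other pairs of genes was computed, so this count has no background.

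The partners of these regulators gave the pathway around them, in 5 lists. The counts of each are read beside all genes tested, of which 28.5% had an interval above 0 and 29.2% below 0. With scaling by total reads, 3158 of all genes tested had an interval above 0 and 5906 below 0, so the balance depends on the scaling. Of 12 NRARP partners and genes of the nuclear complex, the counting interval lay above 0 for 4, below 0 for 6 and held 0 for 2, with a median log2 fold change of -0.05. LEF1, the transcription factor of Wnt signalling that NRARP is known to stabilise, was at 9.68 and 11.3 FPKM without and with NICD1 (log2 fold change 0.28). RBPJ, the DNA-binding partner of NICD, was at 38.0 and 30.9 FPKM (-0.24), and its coactivator MAML3 was at 3.92 and 2.54 FPKM (-0.57). NOTCH1, whose reads can include those of the introduced NICD1, was the only gene of this list above 1, at a log2 fold change of 9.11. As the overexpressed gene, it is among the 4 with an interval above 0 by design.

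Of 14 Deltex partners and Notch ubiquitin ligases, the interval lay above 0 for 4, below 0 for 8 and held 0 for 2, with a median of -0.07. MIB2, a ligase for Notch ligands, was at 12.0 and 16.0 FPKM (0.47), and DTX3L, a Deltex relative that pairs with PARP9, was at 4.42 and 5.11 FPKM (0.26). ARRB1, the beta-arrestin that links receptors to ubiquitination, was at 6.65 and 3.81 FPKM (-0.75), and the ligase gene NEURL1B was at 1.89 and 1.47 FPKM (-0.31). Of 9 genes of Notch O-glycosylation, it lay above 0 for 3, below 0 for 2 and held 0 for 4, with a median of 0.02. EOGT, which adds GlcNAc to Notch repeats, was at 4.26 and 4.88 FPKM (0.25), and POGLUT2, listed as KDELC1, a glucosyltransferase, was at 13.8 and 14.4 FPKM (0.12). The xylosyltransferase genes GXYLT1, at 12.5 and 10.6 FPKM (-0.19), and GXYLT2, at 7.97 and 6.29 FPKM (-0.29), had the lowest log2 fold changes of that list.

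Of 21 Numb partners and polarity genes, the interval lay above 0 for 4, below 0 for 10 and held 0 for 7, with a median of -0.09. MSI1, an RNA-binding protein known to repress translation of NUMB, was at 17.9 and 21.6 FPKM (0.32). PARD6B, at 4.58 and 4.80 FPKM (0.12), had an interval that held 0. EPS15, an endocytic adaptor, was at 17.8 and 15.0 FPKM (-0.20), and PARD6A, a polarity scaffold, was at 5.05 and 3.48 FPKM (-0.48).

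The last list, called HES and HEY targets, held 9 genes outside these families, which include classic Notch targets. Their interval lay above 0 for 6, below 0 for 2 and held 0 for 1, with a median of 0.50. HES5 was at 7.78 and 115 FPKM without and with NICD1 (log2 fold change 3.93), and HEYL was at 5.47 and 17.6 FPKM (1.74). HES6, which opposes HES1, was at 20.8 and 16.1 FPKM (-0.32), and HES2 had 74 and 27 reads, 0.357 and 0.131 FPKM (-1.38). The log2 fold change of NRARP, 0.93, was below those of HES5, HEYL and HEY2 and above those of the other 6 genes of this list. Over all genes tested, 28.5% had an interval above 0 and 29.2% below 0.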

How the data were processed

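The authors deposited 1 value for each of 19225 genes in each library, without a stated unit, and it was treated here as FPKM from the values. The submitters' processing notes name hg38, Bowtie2 and HTSeq, with no version. The study's text calls the sequencing strand-specific, and the labels name the NEBNext Ultra RNA kit. The 27 rows named by a date number were dropped.

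Whole reads were recovered from the steps of the values. The depth was the one that made the lengths of 63.8% of 400 genes whole numbers, against 32.3% at double depth. Whole reads were found for 17176 of 17178 genes above 0. Because multiples of a length also give whole reads, the length nearest the median GENCODE 29 transcript was used (18787 names matched). The reads summed to 105% of the depths. A gene's reads may be too high or too low, by the ratio of the length used to the true one. Ratios between libraries are untouched by this, whereas filters, pseudocounts and intervals are not.

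Fold changes were log2 ratios of reads plus 0.5 over scaled depths, the scaling being a trimmed mean of log ratios (30% of ratios and 5% of levels trimmed at each end, factor 0.964 for A549-NICD1), for genes reaching 10 reads in either library. Intervals were 95% Clopper-Pearson (fold changes), Poisson (levels) and conditional odds ratio (pair ratios). The study's Wald test could not be run on 1 library per condition, and no p-value is given. Steps were tested on simulated data. Python 3.11.15, NumPy 2.4.6, pandas 2.3.3 and SciPy 1.17.1 were used. Alternatives covered scaling, pseudocount, filter and gene length.

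The genes described and all lists, including the markers, were chosen with earlier results of these data known. Named were the 10 regulators, NOTCH1, DTX3L, the 2 highest and 2 lowest genes of each list, and the 3 genes nearest in level to NRARP and DTX1. RFC4, HEY2, KRT8, KRT18, EGFR, ANXA1, ALDH3A1, COL1A1, the HEK293 markers and the markers listed at 0 were named after their values were seen. A further A549 marker is not reported here.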

Additional observations from a re-analysis of the deposited data

How the results depend on the processing

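No paired analysis was possible because there was 1 library per condition, and no library could be left out. For 23 results, 8 alternatives gave 164 values. Of these, 142 stayed within the bounds of their result, 22 moved further and 0 changed sign with bounds that excluded 0. The bounds were the counting interval for a gene and 1.5 times the main count for a count. For a list median they were the medians of the lower and upper limits of its genes. Some of the 142 could not move, because the intervals do not use the pseudocount. Dropping the filter could not change the regulator counts or list medians either, as all of these genes had passed it. NRARP kept a log2 fold change between 0.88 and 0.94. With scaling by total reads, 4 regulators had an interval below 0 (DTX2, DTX4, MFNG and NUMB), while 5906 of the 15299 genes tested had one below 0 and 3158 one above. The medians were then -0.10 for the NRARP partners and 0.45 for the HES and HEY targets, by the shift of 0.05 that this scaling leaves out. With a pseudocount of 5 reads, 0 regulators had a log2 fold change above 1, and 523 of all 15299 genes tested did. A pseudocount of 0.1 FPKM left 0 regulators above 1 and 0 below -1, and 314 and 129 of all genes. With 1 FPKM these counts were 0, 0, 45 and 7, and the log2 fold changes were 0.14 for DTX1, -0.19 for DTX4 and -0.33 for MFNG. Without a filter on low values, 1513 of the 17176 genes with whole reads were above 1 and 792 below -1. With at least 100 reads summed, DTX1 and MFNG were left out, so 0 regulators were above 1, 0 below -1 and 1 had an interval below 0. Of all genes that passed this filter, 158 were above 1, 87 below -1 and 4211 had an interval below 0. Depth limits DTX1, MFNG and LFNG, which have under 100 reads in each library, and without replicates the spread between cultures is unknown.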
